A study of Mus musculus with 7 samples.

Results

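The neo cassette effect was read from 5 of the 7 libraries, as the difference between prospermatogonia homozygous for H19Ter+neo (3 libraries) and prospermatogonia homozygous for H19Ter (2 libraries), over all 20643 genes of the deposited table, of which 15148 are protein-coding. The libraries were chosen by genotype and not by any measured value, and the 2 WT libraries entered the fit and are given alongside. Each library is ribosomal RNA-depleted total RNA of male fetal germ cells at 15.5 dpc, sorted by FACS as EGFP+ cells from dissociated testes. A digest could hold several testes, and the number behind each library is not given.

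Both mutant genotypes carry the same transcription terminator, inserted by gene targeting before the imprinting control region (ICR) that lies between H19 and Igf2, and both carry the Pou5f1 promoter-driven EGFP transgene of the TgOG2 line. H19Ter+neo/H19Ter+neo fetuses retain in addition the Pgkneo selection cassette beside the terminator. H19Ter/H19Ter fetuses come from mice in which that cassette was removed by crossing to Hprt-Cre mice of the 129S1 strain, so this is a comparison of the allele before and after excision. The WT libraries carry neither insertion. Both alleles go back to 1 targeted ES cell line, the lines were bred separately afterwards, and the sources used here do not name the litter, sorting day or sequencing run of a library. The presence of the cassette, the breeding line and any shared preparation of a genotype's libraries therefore cannot be told apart. Reads of the terminator and of neo itself are not in the gene table and were not analysed here. Below, H19Ter and H19Ter+neo stand for the homozygous libraries.

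Prospermatogonia, the fetal male germ cells, leave the mitotic cycle and arrest around the middle of gestation, silence the pluripotency genes they share with primordial germ cells, switch on the piRNA machinery that guards the germ line against transposons, and lay down the paternal DNA methylation imprints. A phosphoglycerate kinase promoter-driven neo gene is a strong transcription unit that is commonly left beside a targeted allele after selection, and its removal by Cre is a routine control for effects of the cassette on its neighbours. In these prospermatogonia, however, the paper saw no forward transcription over Pgkneo and no transcript leaving the cassettes. It also described some low-level ICR transcription in H19Ter+neo, which appeared to restart after the terminator.

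Values are log2 CPM, with read counts scaled to a common library size, and a difference is H19Ter+neo minus H19Ter, tested with limma and called at a Benjamini-Hochberg adjusted p below 0.05 over all 20643 genes. Over all genes 5717 were called (27.7%), 2587 higher (12.5%) and 3130 lower (15.2%). Of the 15148 protein-coding genes, 4412 were called (29.1%), with 2002 higher (13.2%) and 2410 lower (15.9%) in H19Ter+neo. The median fold was 1.37 among those that rose and 1.35 among those that fell, and 199 rose and 97 fell at least 2-fold. Against a fold of 1.5 as the null, 24 rose and 29 fell. Given the same total per library instead of the deposited scaling, the split was 1378 higher (9.1%) and 3112 lower (20.5%), and the median of all protein-coding genes moved to -0.06. The H19Ter group rests on 2 libraries, and the calls dropped to 752 higher (4.96%) and 998 lower (6.59%) without replicate 3, and to 960 higher (6.34%) and 1313 lower (8.67%) without replicate 4. They dropped to 2602 in a fit without a trend of variance on mean. The values of the mutant genotypes did not overlap for 8602 protein-coding genes (56.8%), which is the share to hold beside any gene below whose libraries are said to separate. The study calls such libraries biological replicates, but the animals, litter and sort behind each are not named, and the p-values measure the spread between these libraries.

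The libraries differed in more than genotype. The 3 H19Ter+neo libraries held 84.1 to 87.3 M read pairs in genes, against 37.5 and 51.2 M in H19Ter and 45.1 and 45.9 M in WT. The 10 most abundant genes took 14.6 to 17.2% of the reads in H19Ter+neo and 11.1 to 11.8% in the other 4 libraries. Called genes also sorted by base composition. In the fifth of expressed protein-coding genes with the lowest GC content, 31.8% rose and 4.30% fell, and in the fifth with the highest GC content, 6.45% rose and 31.4% fell. They sorted by transcript length too: in the quintile of shortest transcripts 20.6% rose and 11.7% fell, and in the longest 12% rose and 22.7% fell. The median longest transcript was 536 bases for histones, 1100 for ribosomal proteins and 1135 for nuclear oxidative phosphorylation genes, against 3401 for all protein-coding genes. For that reason the lists the results turn on are given a second time. There a trend on GC content and length was removed from each library, and 1800 protein-coding genes rose (11.9%) and 1878 fell (12.4%). The part of base composition and length in the calls was not tested beyond that removal. The quintile of shortest transcripts ran from 165 to 2108 bases, and the histone median of 536 lies inside it. How well the removal worked for transcripts that short was not tested.

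The plot of functional lists orders 61 groups of protein-coding genes by how their called members split. Members are not replicates, and a list is described by its counts and its median beside those of all protein-coding genes, whose median difference was 0.01.

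**Figure D1:**
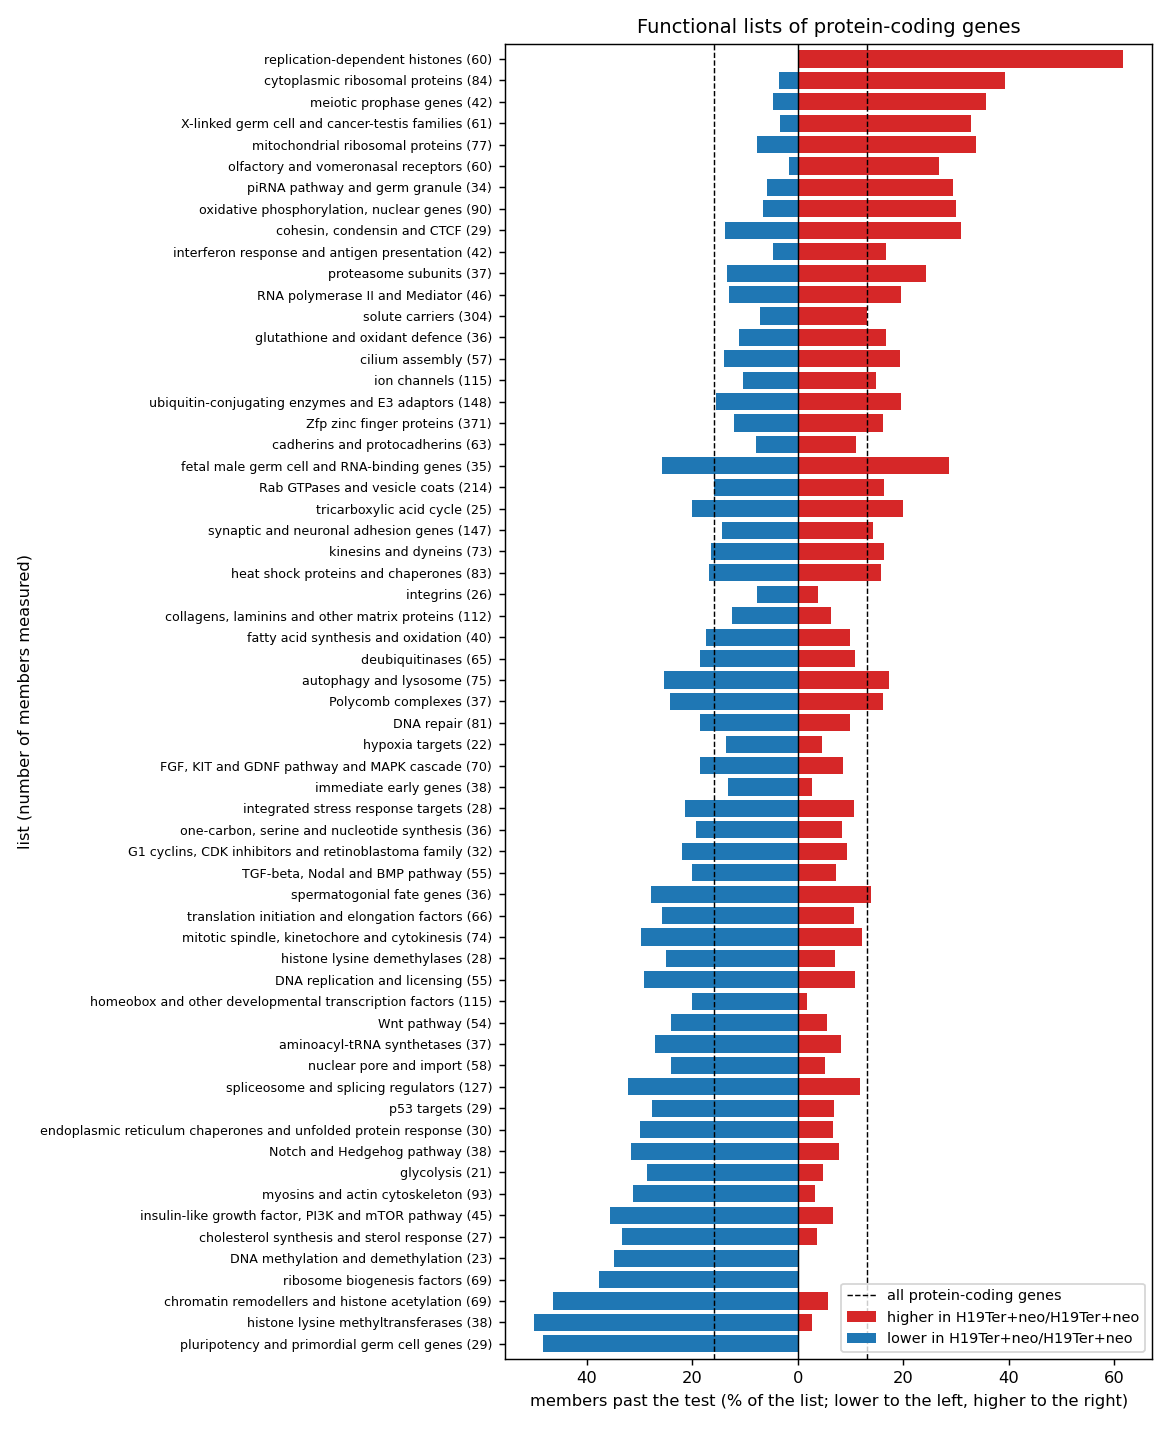
Share of each functional list (vertical axis, number of members measured in parentheses) that passed the test, in percent of the list, drawn to the right for genes higher and to the left for genes lower in H19Ter+neo/H19Ter+neo. The dashed lines mark the 13.2% higher and 15.9% lower among all protein-coding genes. Replication-dependent histones (37 of 60 higher) stand at the top and pluripotency genes (14 of 29 lower) at the bottom.

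Replication-dependent histone genes, which package newly made DNA and are transcribed in S phase, rose more widely than any other list. Of the 60 genes, 37 rose in H19Ter+neo and 0 fell by limma (0 fell at an unadjusted p below 0.05 and 0 by voom), with a median log2 difference of 0.83. The genes that rose were core histone genes: 10 of 13 H4 genes rose (median 1.10), 13 of 17 H2B genes (median 0.96), 10 of 14 H2A genes (median 0.80) and 4 of 10 H3 genes (median 0.60). None of the 6 linker histone H1 genes passed (median 0.14; 0 higher and 0 lower at an unadjusted p below 0.05, and 0 and 0 by voom). The difference between classes was not tested.

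Messages of these genes end not in a poly(A) tail but in a short stem-loop that recruits the stem-loop binding protein, and their RNA is seen in a total RNA library that needs no poly(A) selection. The 16-base histone stem-loop motif, searched by the letters that histone messages are known to share, on the sense strand of the annotated transcripts (GENCODE vM21, GRCm38), was held by 38 of the 60 genes (63.3%) and by 0.449% of all protein-coding genes of the table. Shown here, with the stem-loop in capitals and 5 bases on each side, are 3 H4 and 2 H2B genes that rose and 2 linker histone genes that did not pass the test, chosen to set the classes side by side.
Hist1h4c (chr13:23698084-23698109, - strand): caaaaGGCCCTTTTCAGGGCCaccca
Hist1h4d (chr13:23581945-23581970, + strand): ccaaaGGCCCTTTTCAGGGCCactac
Hist4h4 (chr6:136803993-136804018, - strand): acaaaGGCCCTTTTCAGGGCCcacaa
Hist1h2bb (chr13:23747198-23747223, + strand): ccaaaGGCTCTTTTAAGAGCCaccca
Hist3h2ba (chr11:58949344-58949369, + strand): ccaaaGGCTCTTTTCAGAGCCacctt
Hist1h1c (chr13:23739507-23739532, + strand): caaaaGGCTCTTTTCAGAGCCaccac
Hist1h1d (chr13:23555782-23555807, + strand): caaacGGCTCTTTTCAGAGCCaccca

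The stem-loops of the H4 genes shown differ in the stem from those of the H2B and H1 genes, and the H2B gene Hist3h2ba and both H1 genes hold the same 16 letters. Over the list, 24 of the 38 genes with the stem-loop in an annotated transcript rose (median 0.86) and 13 of the 22 without it (median 0.77). No match says only that these letters are not in the annotated transcript.

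Promoters are shown for 3 of the genes that rose and for 1 linker histone gene, because core and linker histone genes sit side by side on chromosome 13 and moved unequally. The sequences are the 150 bases before the start site, from RefSeq on GRCm38.p6, with matches on either strand to CCAAT (the CCAAT box), to TATAAA (the TATA box) and to the hexamer GGTCCG in capitals. In windows of 250 bases before to 50 after the start, CCAAT was found in 46 of the 55 histone genes with a listed promoter (83.6%) against 37.9% of all 27025 promoters, and TATAAA in 34 (61.8%) against 14.2%. GGTCCG, part of an element known from H4 genes, was in 11 of 12 H4 promoters, in 2 of 43 promoters of the other classes, and in 8.39% of all promoters. A match is a description of the sequence and not of a bound site.
Hist1h4c (chr13:23698459-23698608, - strand): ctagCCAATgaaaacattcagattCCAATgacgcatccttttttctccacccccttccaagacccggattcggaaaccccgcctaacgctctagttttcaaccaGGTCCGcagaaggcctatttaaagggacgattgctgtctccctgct
Hist1h4d (chr13:23581418-23581567, + strand): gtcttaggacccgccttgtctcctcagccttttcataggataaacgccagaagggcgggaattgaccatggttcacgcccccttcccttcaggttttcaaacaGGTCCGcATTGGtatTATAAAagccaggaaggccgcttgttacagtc
Hist1h2bb (chr13:23746584-23746733, + strand): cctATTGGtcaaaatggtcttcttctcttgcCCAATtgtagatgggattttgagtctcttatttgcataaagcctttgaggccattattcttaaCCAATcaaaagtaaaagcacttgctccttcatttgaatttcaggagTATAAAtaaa
Hist1h1d (chr13:23554882-23555031, + strand): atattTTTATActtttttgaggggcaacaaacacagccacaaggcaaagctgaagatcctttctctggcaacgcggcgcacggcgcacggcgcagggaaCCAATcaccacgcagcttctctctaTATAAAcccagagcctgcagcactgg

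Hist1h4c, an H4 gene, stood at 6.81 and 6.71 in the H19Ter libraries and 8.35, 7.93 and 8.58 in the H19Ter+neo libraries. Every H19Ter+neo library was above both H19Ter libraries and above WT (6.94 and 6.83), a difference of 1.52 ± 0.14 (SE, limma adjusted p = 1.33e-04), or 2.88-fold. Hist1h4d, a second H4 gene of the same cluster, stood at 7.94 and 7.84 in the H19Ter libraries and 9.44, 8.93 and 9.79 in the H19Ter+neo libraries, a difference of 1.49 ± 0.18 (SE, limma adjusted p = 4.14e-04). Hist4h4, a lone H4 gene on chromosome 6, likewise separated, at 5.38 and 5.43 in the H19Ter libraries and 7.19, 6.75 and 6.88 in the H19Ter+neo libraries, and its difference of 1.53 ± 0.12 (SE, limma adjusted p = 5.45e-05) places a rise of the same size outside the chromosome 13 clusters. Hist1h2bb, an H2B gene, differed by 1.26 ± 0.13 (SE, limma adjusted p = 2.04e-04) and Hist1h2bc by 0.91 ± 0.11.

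The linker histone genes, named here after their values were seen, ranged from -0.15 for the testis-specific Hist1h1t to 0.32 for Hist1h1a, which was called only without H19Ter+neo replicate 6 (0.63). Hist1h1d, the H1 gene whose promoter is shown, stood at 5.62 and 5.44 in the H19Ter libraries and 6.18, 5.07 and 5.64 in the H19Ter+neo libraries, with the groups overlapping. Hist2h2be (-0.41) and Hist3h2a (-0.30), also picked after the fact, were the core histone genes on the other side of 0, and neither passed. Hist1h2bq had 0 read pairs in both H19Ter libraries, 1, 197 and 225 in H19Ter+neo and 195 and 189 in WT, so that 1 H19Ter+neo library sided with H19Ter, and no fold is given for it. Without it the median of the list was 0.82.

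**Figure D2:**
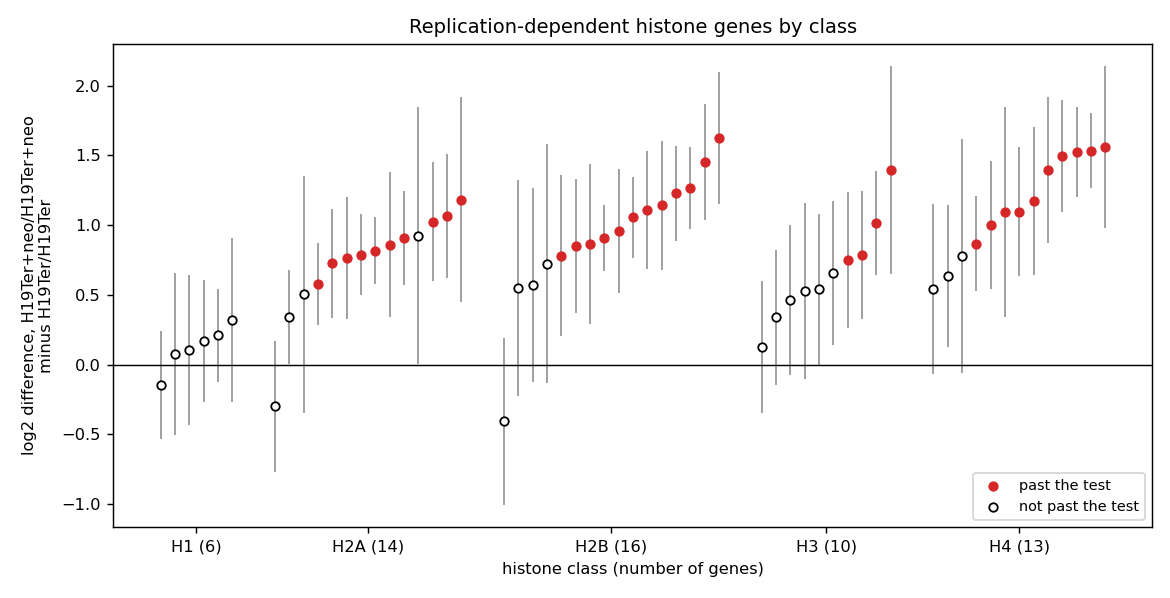
Log2 difference of each replication-dependent histone gene (point) with its 95% confidence interval (bar), grouped by histone class on the horizontal axis with the number of genes. Filled points passed the test. H4 and H2B genes lie highest, the 6 H1 genes straddle 0, and Hist1h2bq, at 0 read pairs in both H19Ter libraries, is left out.

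Relative to the WT mean of each gene, the median histone gene stood at -0.57 and -0.69 in the H19Ter libraries and 0.43, -0.25 and 0.25 in the H19Ter+neo libraries. The H19Ter libraries were thus below WT and the H19Ter+neo libraries on both sides of it, with no overlap between the mutants. The count of risen members was 26 without H19Ter replicate 3 and 24 without replicate 4, and after removal of the GC and length trend it was 39. Histone genes are near-identical copies of one another, so reads can be shared or dropped among them. The share of a gene's 50-base words that occurred in other genes' transcripts was 8.1% for Hist4h4, 10.2% for Hist1h4d, 19.6% for Hist1h4c and 40.1% for Hist1h2bb. Over the list it ran from 0% (as for Hist2h2be) to 100% (as for Hist2h2bb), and Hist1h4n, among the largest rises below, was at 85.6%. A long transcript lowers this share where only the coding part is shared.

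Genes of the ribosome itself rose more often than they fell, and the genes that assemble it that passed the test all fell, while most of them did not pass. Among the 84 cytoplasmic ribosomal protein genes, 33 rose and 3 fell, with a median difference of 0.26, in the large (20 of 52 rose) and the small subunit (13 of 32). Among the 69 ribosome biogenesis factors, the nucleolar proteins that transcribe, cut and fold ribosomal RNA, 26 fell and 0 rose by limma (4 rose at an unadjusted p below 0.05 and 0 by voom), with a median of -0.17.

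Rps7, a small subunit protein, stood at 8.70 and 8.47 in the H19Ter libraries and 10.11, 9.78 and 9.59 in the H19Ter+neo libraries, and WT at 8.78 and 8.92. All 3 H19Ter+neo values exceeded the other 4, with a difference of 1.24 ± 0.13 (SE, limma adjusted p = 1.86e-04). Rpl34, of the large subunit, rose by 1.22 ± 0.13 (SE, limma adjusted p = 2.31e-04) and Rps16 by 0.86 ± 0.10. Rpl39l, the copy of Rpl39 used in male germ cells, averaged 6.07 ± 0.07 (SD, n = 2) in H19Ter and 6.98 ± 0.10 (SD, n = 3) in H19Ter+neo, a difference of 0.91 ± 0.07 (SE, limma adjusted p = 6.56e-05).

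The list as a whole was less even than these genes. Relative to WT the median ribosomal protein gene stood at -0.10 and -0.30 in the H19Ter libraries and 0.25, 0.18 and -0.16 in the H19Ter+neo libraries, so H19Ter+neo replicate 7 lay between the H19Ter libraries. The risen members numbered 22 without H19Ter replicate 3 and 15 without replicate 4. They numbered 35 after removal of the GC and length trend. Ribosomal protein genes have many processed copies in the genome, and 59.9% of the 50-base words of Rps7, 41.6% of Rps16, 6.9% of Rpl34 and 0% of Rpl39l occurred in transcripts of other genes. Processed pseudogenes of any parent fell in 299 and rose in 65 of 1035 cases. A shift of reads between genes and copies was not tested.

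Nolc1, a nucleolar chaperone of small nucleolar RNPs, stood at 6.33 and 6.13 in the H19Ter libraries and 5.07, 4.93 and 4.79 in the H19Ter+neo libraries, below WT (6.50 and 6.81) in all mutants and lowest in H19Ter+neo (difference -1.30 ± 0.11, SE, limma adjusted p = 7.82e-05). Tcof1, which recruits RNA polymerase I to ribosomal DNA, averaged 6.25 ± 0.04 (SD, n = 2) in H19Ter and 5.24 ± 0.08 (SD, n = 3) in H19Ter+neo, a difference of -1.005 ± 0.08 (SE, limma adjusted p = 5.86e-05). Gnl3l (-0.58 ± 0.06) and Ddx27 (-0.69 ± 0.09) fell as well, and so, chosen after its value was seen, did nucleolin (Ncl, -0.48 ± 0.06). The medians relative to WT were -0.17 and -0.17 in the H19Ter libraries and -0.27, -0.32 and -0.42 in the H19Ter+neo libraries, without overlap. The fallen members were 13 without H19Ter replicate 3 and 17 without replicate 4, and 25 after removal of the GC and length trend.

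Translation factors moved in both directions. Of 66 initiation and elongation factors 7 rose and 17 fell. Eif3g, a subunit of initiation factor 3, stood at 7.08 and 7.05 in the H19Ter libraries and 6.05, 6.24 and 5.90 in the H19Ter+neo libraries, a fall of 2-fold (difference -1.001 ± 0.09, SE, limma adjusted p = 8.36e-05), and the scaffold Eif4g1 fell by 0.56 ± 0.06 on the log2 scale. Eif1b, which helps select the start codon, rose by 0.61 ± 0.08. Eef2k, the kinase that slows elongation, was at 4.12 and 4.16 in the H19Ter libraries and 3.38, 3.41 and 3.30 in the H19Ter+neo libraries, while WT stood at 3.15 and 3.26: here the H19Ter libraries stood apart from both other genotypes. Of 37 aminoacyl-tRNA synthetases, which charge tRNAs, 3 rose and 10 fell (median -0.15), with falls in Ears2 (-0.49 ± 0.07) and Vars (-0.42 ± 0.07).

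**Figure D3:**
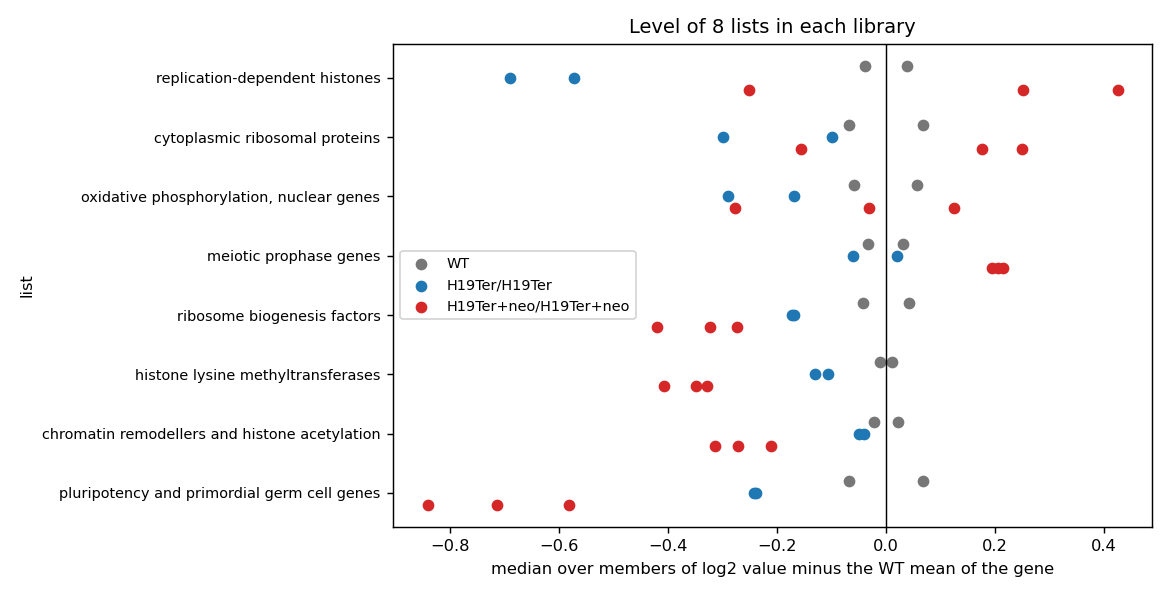
Median over the members of 8 lists of the log2 value minus the WT mean of the same gene (horizontal axis), 1 point per library, by genotype. The H19Ter+neo/H19Ter+neo libraries separate from the H19Ter/H19Ter libraries for histones, meiotic prophase genes, ribosome biogenesis, both chromatin lists and pluripotency genes, and overlap with them for ribosomal proteins and oxidative phosphorylation.

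Nuclear genes of the respiratory chain and of the mitochondrial ribosome rose more often than they fell. Of the 90 nuclear genes of oxidative phosphorylation and its assembly factors, 27 rose and 6 fell (median 0.22), and of the 77 mitochondrial ribosomal proteins 26 rose and 6 fell (median 0.11). Other mitochondrial pathways did not lean that way: of 25 tricarboxylic acid cycle genes 5 rose and 5 fell (median -0.03), and of 40 genes of fatty acid synthesis and oxidation 4 rose and 7 fell. By complex, the median difference was 0.21 for complex I (10 of 38 rose, 3 fell), 0.37 for complex III (4 of 9 rose), 0.37 for cytochrome c oxidase (6 of 14 rose) and 0.22 for ATP synthase (5 of 17 rose, 2 fell). It was 0.02 for complex II (1 of 4 rose, 1 fell) and -0.03 for complex I assembly factors (1 of 8 rose). With the GC and length trend removed the median of complex I was 0.097.

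Ndufc2, a subunit of complex I, stood at 6.31 and 6.31 in the H19Ter libraries and 7.46, 7.33 and 7.14 in the H19Ter+neo libraries, a 2-fold rise (difference 1.003 ± 0.09, SE, limma adjusted p = 7.80e-05) with WT at 6.19 and 6.28. Uqcrfs1, the Rieske protein of complex III, rose by 0.67 ± 0.08, Ndufb11 by 0.93 ± 0.12, and Sdhb, which serves both complex II and the tricarboxylic acid cycle, by 0.59 ± 0.09. Among the mitochondrial ribosomal proteins the smallest p-values belonged to Mrpl36 (0.77 ± 0.09), Mrpl3 (0.54 ± 0.07) and Mrps22 (0.49 ± 0.06).

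The median nuclear oxidative phosphorylation gene, relative to WT, stood at -0.17 and -0.29 in the H19Ter libraries and 0.13, -0.03 and -0.28 in the H19Ter+neo libraries, so replicate 7 of H19Ter+neo again fell within the range of the H19Ter libraries. Risen members were 15 without H19Ter replicate 3 and 9 without replicate 4, and 33 after removal of the GC and length trend. For mitochondrial ribosomal proteins the risen members were 13 without H19Ter replicate 3 and 9 without replicate 4. The 8 listed protein-coding genes of the mitochondrial genome, whose transcripts are poor in GC, behaved differently under removal of the GC and length trend. Before the removal their differences ran from -1.81, for a gene that did not pass, to 0.57. As deposited, 4 rose, with mt-Nd1 at 0.57 ± 0.09 and mt-Co1 at 0.46 ± 0.09, and 0 fell by limma (0 at an unadjusted p below 0.05 and 0 by voom). With the trend removed, 1 rose and 2 fell, and mt-Co1 was no longer called (0.22). It was not called without H19Ter replicate 3 either (0.38).

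The proteasome, which degrades ubiquitin-tagged proteins, split between its parts. In the core particle 6 of 17 genes rose and 0 fell by limma (0 at an unadjusted p below 0.05, 0 by voom), and in the regulatory particle 3 of 20 rose and 5 fell. Psmb1, a core subunit, stood at 7.57 and 7.49 in the H19Ter libraries and 8.32, 8.26 and 8.09 in the H19Ter+neo libraries (difference 0.69 ± 0.07, SE, limma adjusted p = 2.28e-04). The regulatory subunits Psmd3 (-0.58 ± 0.07) and Psmc5 (-0.72 ± 0.10) fell. The risen core genes were 3 without H19Ter replicate 3 and 2 without replicate 4. Over all proteasome genes the medians relative to WT were -0.16 and -0.22 in the H19Ter libraries and 0.02, -0.07 and -0.24 in the H19Ter+neo libraries, so that H19Ter+neo replicate 7 was the lowest library. The difference between the particles was not tested.

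Chromatin regulators fell more often than most lists. Of 69 chromatin remodelling and histone acetylation genes, 4 rose and 32 fell (median -0.19), and of 38 histone lysine methyltransferases 1 rose and 19 fell (median -0.20). Chd4, the helicase of the NuRD complex, stood at 9.70 and 9.67 in the H19Ter libraries and 8.84, 8.96 and 8.89 in the H19Ter+neo libraries and at 9.65 and 9.73 in WT. The 4 libraries without neo lay close together and the 3 with it below them, a difference of -0.79 ± 0.06 (SE, limma adjusted p = 2.72e-05).

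Smarca4, the motor of the SWI/SNF complex, averaged 8.78 ± 0.04 (SD, n = 2) in H19Ter and 8.05 ± 0.07 (SD, n = 3) in H19Ter+neo, a difference of -0.73 ± 0.06 (SE, limma adjusted p = 5.48e-05). Ep400, the motor of another remodelling complex, fell too (-0.54 ± 0.05). The methyltransferases of the MLL and SET1 type, which methylate histone H3 at lysine 4, were prominent: Setd1b differed by -1.31 ± 0.15, Kmt2d by -0.96 ± 0.10, Kmt2b by -0.57 ± 0.08 and Kmt2a by -0.43 ± 0.05. Ehmt2, named after its value was seen as the 1 methyltransferase that rose, differed by 0.19 ± 0.06 (limma adjusted p = 0.0327). It was not called without H19Ter replicate 3 (0.17) or 4 (0.20), without H19Ter+neo replicate 6 (0.16) or with the same total per library (0.12).

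Both lists hold long messages, with a median longest transcript of 5179 and 6041 bases and a median GC content of 51.3% and 49.8%. With the GC and length trend removed, 27 remodelling and 16 methyltransferase genes still counted as fallen, with medians of -0.12 and -0.15, and the differences of the named genes were -0.65 for Chd4, -0.54 for Smarca4, -0.75 for Kmt2d and -1.12 for Setd1b. The fallen remodelling genes were 19 without H19Ter replicate 3 and 26 without replicate 4, and the fallen methyltransferases were 7 without H19Ter replicate 3 and 9 without replicate 4.

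Of 28 histone lysine demethylases 2 rose and 7 fell (median -0.09), and the fallen ones were 4 without H19Ter replicate 3 and 4 without replicate 4. Kdm6b, which removes methylation from H3 lysine 27, fell by 1.03 ± 0.10 on the log2 scale, and Kdm1b, a demethylase of H3 lysine 4 needed for oocyte imprints, rose by 0.61 ± 0.08. Of 37 Polycomb genes 6 rose and 9 fell, with Bcorl1 (-0.94 ± 0.09), Pcgf2 (-0.93 ± 0.10) and Bcor (-0.71 ± 0.08) on one side and Bmi1 (0.54 ± 0.06) on the other. Bcorl1 and Bcor were higher in H19Ter than in WT (differences of 0.81 and 0.28), and in H19Ter+neo Bcorl1 differed from WT by -0.12 and Bcor by -0.43.

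DNA methylation is the process these cells are known for, and its genes were examined for that reason. Of 23 methyltransferases, oxidases and partners, 8 fell and 0 rose by limma (1 at an unadjusted p below 0.05 and 0 by voom), with a median of -0.13. The fallen members were 2 without H19Ter replicate 3 and 4 without replicate 4, and 5 after removal of the GC and length trend. Dnmt1, the maintenance methyltransferase, stood at 7.74 and 7.70 in the H19Ter libraries and 7.22, 7.26 and 7.40 in the H19Ter+neo libraries (difference -0.43 ± 0.07, SE, limma adjusted p = 0.00184). Tet2 (-0.30 ± 0.06) and Tet1 (-0.52 ± 0.12), which oxidise methylcytosine, also fell, as did Mbd4 (-0.47 ± 0.09). Tet2 lost its call without H19Ter replicate 4 (-0.24), and Tet1 (-0.45) and Mbd4 (-0.43) without replicate 3. Dnmt3l, the cofactor of de novo methylation in male germ cells and named after its value was seen, differed by 0.01 ± 0.11 (limma adjusted p = 0.951), with a 95% interval from -0.23 to 0.25.

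Splicing genes fell more often than they rose (41 and 15 of 127), with a median near 0 (-0.03). Sart1, a protein of the tri-snRNP, stood at 6.41 and 6.37 in the H19Ter libraries and 5.41, 5.56 and 5.43 in the H19Ter+neo libraries (difference -0.92 ± 0.07, SE, limma adjusted p = 5.45e-05), and Sart3, which recycles U6, fell by 0.65 ± 0.07 on the log2 scale. RNA polymerase II and Mediator were mixed, 9 up and 6 down of 46. Polr2a, the large subunit of the polymerase, was among the most precise falls of the comparison, at 9.98 and 9.998 in the H19Ter libraries and 9.36, 9.40 and 9.34 in the H19Ter+neo libraries (difference -0.62 ± 0.05, SE, limma adjusted p = 5.45e-05), whereas Polr2g rose by 0.51 ± 0.09.

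In the germ line lists, the genes of the pluripotent state that passed the test all fell, and genes of meiosis rose more often than they fell. Of 29 pluripotency and primordial germ cell genes, 14 fell and 0 rose by limma (1 at an unadjusted p below 0.05 and 0 by voom), with a median of -0.40. The 3 core factors Pou5f1, Sox2 and Nanog all fell. Of 42 meiotic prophase genes 15 rose and 2 fell (median 0.21), and of 34 piRNA pathway and germ granule genes 10 rose and 2 fell (median 0.12).

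Pou5f1, whose promoter also drives the sorting transgene, stood at 7.96 and 7.96 in the H19Ter libraries and 7.42, 7.53 and 7.21 in the H19Ter+neo libraries and at 8.01 and 8.09 in WT, a difference of -0.58 ± 0.08 (SE, limma adjusted p = 0.0011). Nanog stood at 4.96 and 4.91 in the H19Ter libraries and 4.08, 3.76 and 3.91 in the H19Ter+neo libraries (difference -1.02 ± 0.13, SE, limma adjusted p = 4.99e-04; chosen, as were Sox2 and Esrrb, after its value was seen). The H19Ter+neo range of either gene did not touch that of the other genotypes. Sox2 differed by -0.72 ± 0.13 and Esrrb by -0.85 ± 0.12. Tfcp2l1, a factor of naive pluripotency, averaged 7.82 ± 0.04 (SD, n = 2) in H19Ter and 6.94 ± 0.13 (SD, n = 3) in H19Ter+neo, a difference of -0.88 ± 0.08 (SE, limma adjusted p = 7.70e-05). Alpl, the alkaline phosphatase used to stain primordial germ cells, was at 6.62 and 6.86 in the H19Ter libraries and 5.65, 5.59 and 5.80 in the H19Ter+neo libraries, above WT (6.13 and 6.33) in H19Ter and below it in H19Ter+neo (difference -1.06 ± 0.09, SE, limma adjusted p = 9.65e-05). The transcription factor Sall1 (-0.85 ± 0.10) and Lin28a, which blocks let-7 maturation (-0.62 ± 0.07), complete the named members.

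Relative to WT, the median pluripotency gene stood at -0.24 and -0.24 in the H19Ter libraries and -0.58, -0.71 and -0.84 in the H19Ter+neo libraries. The libraries of each mutant were thus both below WT, those of H19Ter+neo further, without overlap. The fallen members were 9 without H19Ter replicate 3 and 10 without replicate 4, and 14 after removal of the GC and length trend, with 1 gene then higher.

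**Figure D4:**
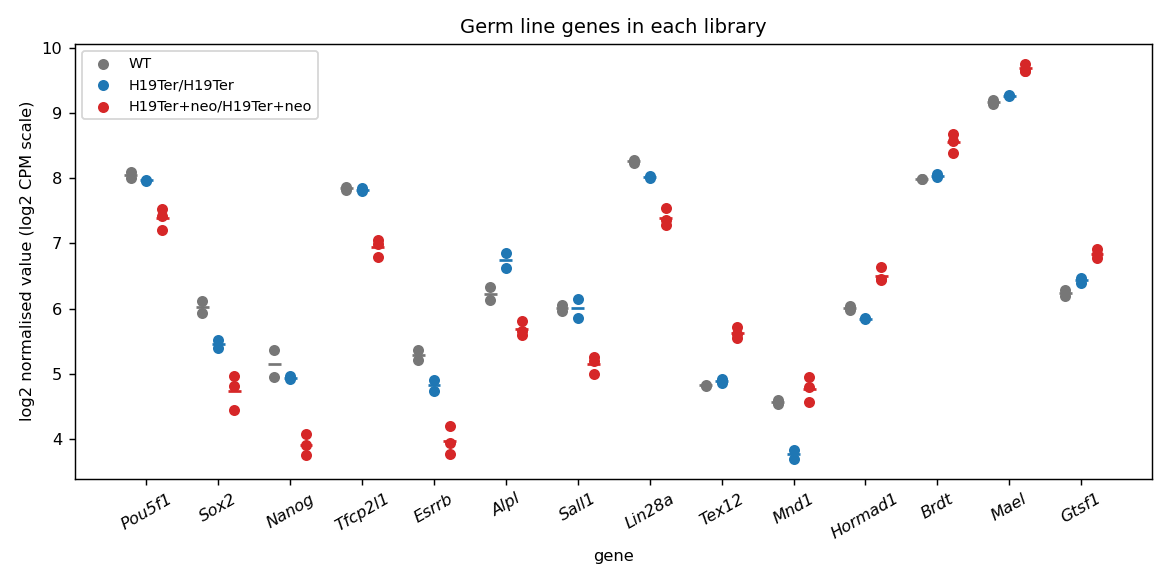
Log2 values (log2 CPM) of 14 germ line genes in each library (points) with the genotype mean (bar). The 8 pluripotency and primordial germ cell genes on the left are lowest in H19Ter+neo/H19Ter+neo, and the 6 meiotic and piRNA genes on the right are highest there.

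Tex12, a protein of the synaptonemal complex, stood at 4.86 and 4.92 in the H19Ter libraries and 5.62, 5.71 and 5.55 in the H19Ter+neo libraries, a difference of 0.74 ± 0.08 (SE, limma adjusted p = 2.01e-04) with WT at 4.82 and 4.83. Hormad1, which marks unsynapsed axes, rose by 0.66 ± 0.08 and Brdt, a bromodomain protein of spermatogenesis, by 0.51 ± 0.08. Mnd1, a partner of the strand exchange proteins, was at 3.84 and 3.70 in the H19Ter libraries and 4.96, 4.79 and 4.57 in the H19Ter+neo libraries and at 4.53 and 4.59 in WT, so that here the H19Ter libraries were the low ones (difference 1.005 ± 0.11, SE, limma adjusted p = 2.79e-04). Spata22, needed for meiotic recombination and named after its value was seen, rose by 1.06 ± 0.23, a call lost without H19Ter replicate 3 (0.85). The meiotic cohesin Rec8, likewise, fell by 0.52 ± 0.12 on the log2 scale, a call lost without H19Ter replicate 4 (-0.46). Stra8, the gatekeeper of meiosis that male germ cells keep off at this age, did not pass (-0.33 ± 0.31, limma adjusted p = 0.45).

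The meiotic list is poor in GC (median 44%, against 49.7% for all protein-coding genes). After removal of the GC and length trend 8 genes rose and 2 fell, with a median of 0.09, and the difference of Tex12 became 0.41 and that of Hormad1 0.35. The risen members were 5 without H19Ter replicate 3 and 10 without replicate 4.

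The piRNA list depended on the scaling: given the same total per library, 4 rose and 3 fell. Mael, which acts in nuclear transposon silencing, stood at 9.27 and 9.25 in the H19Ter libraries and 9.65, 9.75 and 9.64 in the H19Ter+neo libraries (difference 0.42 ± 0.05, SE, limma adjusted p = 5.66e-04) and Gtsf1, a partner of PIWI proteins, rose by 0.41 ± 0.07. Snd1, a nuclease of the same list with uses in every cell, fell by 0.47 ± 0.06 on the log2 scale. Ddx4, the germ cell helicase, did not pass (named after its value was seen; 0.12 ± 0.05, limma adjusted p = 0.122). The risen members of this list were 3 without H19Ter replicate 3 and 6 without replicate 4, and 9 after removal of the GC and length trend.

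Genes of fetal male germ cell fate were divided, 10 up and 9 down of 35, with differences from -0.91 to 1.28. The members with the smallest p-values, named next, were falls. Nodal, the growth factor of early male differentiation, stood at 2.94 and 2.66 in the H19Ter libraries and 1.93, 1.96 and 1.79 in the H19Ter+neo libraries, below WT (3.62 and 3.64) in both mutants and lowest in H19Ter+neo (difference -0.91 ± 0.13, SE, limma adjusted p = 0.00102). Cnot3, a subunit of the deadenylase complex that NANOS2 recruits, fell by 0.70 ± 0.06 and Mov10 by 0.58 ± 0.06 on the log2 scale. Chosen after its value was seen, Nanos2, the male fate determinant, differed by -0.61 ± 0.15, and was not called without H19Ter replicate 3 (-0.58) or 4 (-0.63).

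Of 36 spermatogonial fate genes 5 rose and 10 fell. Zbtb16, a marker of spermatogonial progenitors, stood at 3.94 and 3.93 in the H19Ter libraries and 2.95, 3.13 and 2.94 in the H19Ter+neo libraries with WT at 3.27 and 3.11, a difference of -0.93 ± 0.11 (SE, limma adjusted p = 3.77e-04). Cdh1 fell by 0.79 ± 0.11 and the retinoic acid receptor Rara by 0.58 ± 0.08 on the log2 scale. Etv5, a transcription factor downstream of GDNF, fell by 0.76 ± 0.14 on the log2 scale, and the GDNF receptor Ret, named after its value was seen, by 0.47 ± 0.10, a call lost without H19Ter replicate 3 (-0.35).

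The families of X-linked germ cell and cancer-testis genes, gathered by symbol, rose in 20 of 61 cases and fell in 2 (median 0.26). Tktl1, a transketolase-like enzyme, stood at 6.43 and 6.42 in the H19Ter libraries and 7.05, 7.17 and 7.24 in the H19Ter+neo libraries (difference 0.73 ± 0.08, SE, limma adjusted p = 2.04e-04), Nxf2, an mRNA export factor, rose by 0.43 ± 0.06, and Xlr, of a lymphoid and germ cell family, by 0.63 ± 0.10. Both genes that fell, Slx4 (-0.53 ± 0.08) and Slx1b (-0.54 ± 0.16), are autosomal DNA repair genes that the symbol pattern caught, and Slx1b was named after its value was seen. Slx1b was not called without H19Ter replicate 3 (-0.61) or 4 (-0.47) or H19Ter+neo replicate 6 (-0.41). After removal of the GC and length trend 9 rose and 3 fell (median 0.12), and the risen members were 7 without H19Ter replicate 3 and 7 without replicate 4. Several of these genes are near-identical copies.

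The other cell cycle lists were mixed. Of 55 DNA replication and licensing genes 6 rose and 16 fell (median -0.01). Chaf1a, which deposits new histones behind the fork, stood at 5.08 and 5.07 in the H19Ter libraries and 4.51, 4.43 and 4.42 in the H19Ter+neo libraries (difference -0.62 ± 0.08, SE, limma adjusted p = 4.21e-04) and Lig1 fell by 0.50 ± 0.06 on the log2 scale. Orc6 (0.56 ± 0.07) and Rfc4 (0.60 ± 0.08) rose. Of 74 mitotic genes 9 rose and 22 fell (median -0.12), with the checkpoint protein Mad2l1 higher (0.78 ± 0.08) and its partner Mad1l1 lower (-0.78 ± 0.10). The fallen mitotic genes were 10 without H19Ter replicate 3 and 11 without replicate 4. Cohesin, condensin and CTCF genes leaned the other way, 9 up and 4 down of 29, but 1 up and 5 down with the GC and length trend removed. Of 32 genes of G1 cyclins, CDK inhibitors and the retinoblastoma family 3 rose and 7 fell. Of 81 DNA repair genes 15 fell (18.5%) and 8 rose (9.88%), near the 15.9% lower and 13.2% higher of all protein-coding genes. Xrcc1, of this list, stood at 6.32 and 6.33 in the H19Ter libraries and 5.53, 5.57 and 5.50 in the H19Ter+neo libraries (difference -0.79 ± 0.06, SE, limma adjusted p = 5.45e-05).

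Signalling lists held more falls than rises in H19Ter+neo. Their fallen share ran from 18.6% to 35.6%, against 15.9% of all protein-coding genes. In the insulin-like growth factor, PI3K and mTOR list, 16 of 45 fell and 3 rose (median -0.13). Pik3r2, a regulatory subunit of PI3K, stood at 5.52 and 5.39 in the H19Ter libraries and 4.66, 4.58 and 4.54 in the H19Ter+neo libraries (difference -0.86 ± 0.08, SE, limma adjusted p = 1.11e-04). Igf1r, the receptor through which IGF2 signals, fell by 0.41 ± 0.06 on the log2 scale, and Igf2bp1, which binds the Igf2 message, by 0.80 ± 0.08. Fallen members were 8 without H19Ter replicate 3 and 13 without replicate 4, and 11 after removal of the GC and length trend.

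The Notch and Hedgehog list had 12 of 38 lower and 3 higher, and its median moved from -0.19 to -0.04 once the GC and length trend was removed. Numb, a Notch inhibitor, fell by 0.60 ± 0.07 and Ptch1, the Hedgehog receptor, by 0.46 ± 0.07 on the log2 scale. Ptch1 is also among the interstitial and peritubular markers summed below. In the Wnt list, 13 of 54 fell and 3 rose, with a median near 0 (-0.03). Tcf7l1, the repressor that limits Wnt targets and pluripotency genes, stood at 3.21 and 2.80 in the H19Ter libraries and 1.49, 1.68 and 1.68 in the H19Ter+neo libraries (difference -1.39 ± 0.15, SE, limma adjusted p = 2.66e-04), a wide gap at a low level. In the TGF-beta list 11 of 55 fell and 4 rose, with Bmp4 at 3.39 and 3.15 in the H19Ter libraries and 2.49, 2.20 and 2.26 in the H19Ter+neo libraries (difference -0.95 ± 0.13, SE, limma adjusted p = 8.87e-04). The FGF, KIT and GDNF list had 13 lower and 6 higher of 70 (median -0.04). Its fallen share of 18.6% was near the 15.9% of all protein-coding genes.

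Developmental transcription factors fell in 23 and rose in 2 of 115 cases (median -0.10). Sox3, an X-linked relative of Sox2, stood at 3.25 and 3.12 in the H19Ter libraries and 2.07, 1.84 and 1.55 in the H19Ter+neo libraries (difference -1.36 ± 0.16, SE, limma adjusted p = 3.51e-04), and Sox12 fell by 0.67 ± 0.07 on the log2 scale. The fallen members were 10 without H19Ter replicate 3 and 17 without replicate 4, and 17 after removal of the GC and length trend.

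Genes of the actin cytoskeleton and of sterol synthesis also fell more often than they rose. Of 93 myosin and actin genes 3 rose and 29 fell (median -0.09; 21 fell with the GC and length trend removed). Actn1, an actin crosslinker, stood at 7.23 and 7.27 in the H19Ter libraries and 6.69, 6.71 and 6.58 in the H19Ter+neo libraries (difference -0.59 ± 0.06, SE, limma adjusted p = 2.36e-04) and Ezr, which ties actin to the membrane, fell by 0.69 ± 0.09 on the log2 scale. Of 27 cholesterol genes 1 rose and 9 fell (median -0.15). Srebf2, the regulator of the pathway, averaged 7.97 ± 0.04 (SD, n = 2) in H19Ter and 7.41 ± 0.05 (SD, n = 3) in H19Ter+neo, a difference of -0.56 ± 0.06 (SE, limma adjusted p = 1.76e-04). Among 112 matrix genes, 14 fell and 7 rose (median -0.04, and 0.04 with the trend removed). The fallen share of 12.5% was below the 15.9% of all protein-coding genes. Fibronectin (Fn1) was among the most precise falls, at 9.81 and 9.78 in the H19Ter libraries and 8.99, 8.92 and 8.85 in the H19Ter+neo libraries (difference -0.87 ± 0.06, SE, limma adjusted p = 2.72e-05).

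Of the stress lists, 4 held more falls than rises and the interferon list more rises than falls. Over all protein-coding genes 13.2% rose and 15.9% fell. The fallen share was above that for p53 targets (27.6%) and integrated stress response targets (21.4%). It was below that for hypoxia targets (13.6%) and immediate early genes (13.2%). The risen share of the interferon list was 16.7%. Among p53 targets 2 rose and 8 fell of 29 (median -0.12), among integrated stress response targets 3 rose and 6 fell of 28, among immediate early genes 1 rose and 5 fell of 38 (median -0.24) and among hypoxia targets 1 rose and 3 fell of 22. The fallen p53 targets were 2 without H19Ter replicate 3 and 5 without replicate 4, and the fallen immediate early genes 0 without H19Ter replicate 3 and 2 without replicate 4. In the glutathione list 6 rose and 4 fell of 36, and neighbouring enzymes parted: Gstm5, a germ cell glutathione transferase, stood at 5.29 and 5.32 in the H19Ter libraries and 6.35, 6.32 and 6.36 in the H19Ter+neo libraries (difference 1.03 ± 0.07, SE, limma adjusted p = 1.74e-05), Mgst3 rose by 1.12 ± 0.12, and Gstm1 fell by 0.82 ± 0.12 on the log2 scale. In the interferon and antigen presentation list 7 rose and 2 fell of 42 (median 0.20), with B2m, the light chain of class I molecules, at 3.90 and 4.01 in the H19Ter libraries and 4.73, 4.54 and 4.44 in the H19Ter+neo libraries (difference 0.62 ± 0.10, SE, limma adjusted p = 0.00233). Heat shock genes split evenly, 13 up and 14 down of 83, and Zfp zinc finger genes were mixed, 60 up and 45 down of 371, where the risen members went from 60 to 23 on removal of the GC and length trend. Of 60 olfactory and vomeronasal receptor genes, nearly silent here, 16 rose and 1 fell (median 0.67, and 0.21 to 0.71 over the alternatives). Their median log2 values were -0.84 and -0.74 in the H19Ter libraries and -0.10, -0.27 and -0.24 in the deeper H19Ter+neo libraries. Every gene of the deposited table reached at least 23 read pairs in some library. Receptors this low could therefore enter it through the group where they were high, and nothing is concluded from these counts.

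**Figure D5:**
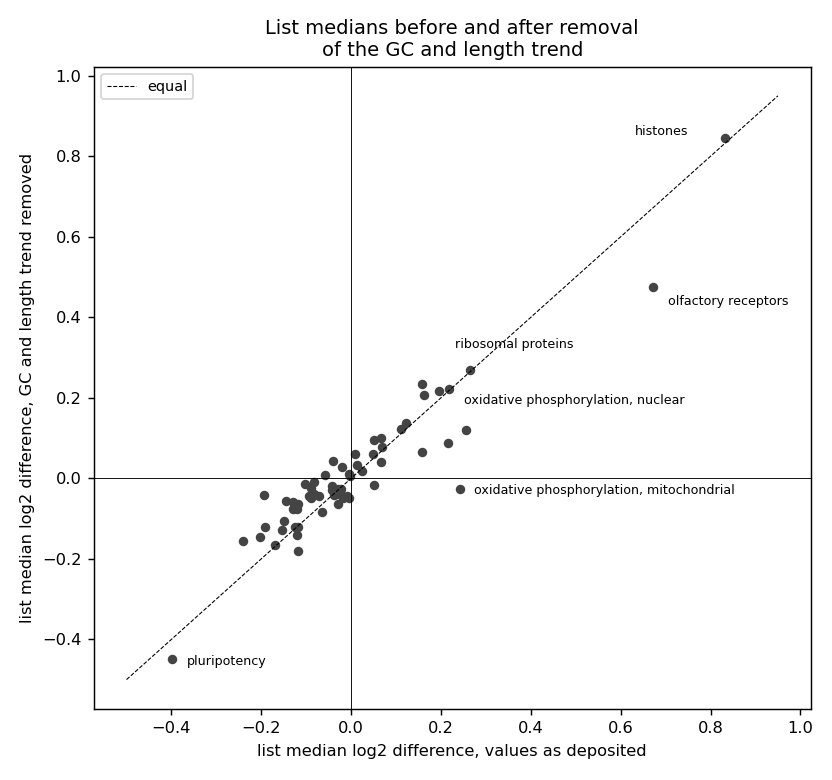
Median log2 difference of each functional list (point) from the values as deposited (horizontal axis) and once the GC and length trend was taken out (vertical axis). Histones (0.83 and 0.84) and pluripotency genes (-0.40 and -0.45) lie near the line of equality, and the mitochondrially encoded genes (0.24 and -0.03) off it.

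The largest single rises among genes whose log2 values averaged 1 or more began with Gm10800, Gm10801 and Gm21738, predicted genes that share sequence with other transcripts. Gm10800 stood at 4.25 and 3.47 in the H19Ter libraries and 8.04, 9.15 and 8.53 in the H19Ter+neo libraries (difference 4.71 ± 0.44, SE, limma adjusted p = 1.17e-04), with 30.1% of its 50-base words in other genes' transcripts. WT replicate 1 stood at 5.71 and replicate 2 at 4.02. The histone genes Hist3h2ba (1.62 ± 0.21), Hist1h4n (1.56 ± 0.26) and Hist1h2ba (1.45 ± 0.19) followed with Hist4h4, Hist1h4c and Hist1h4d.

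Among the remaining rises, Tnfsf11, the ligand RANKL, stood at 0.17 and 0.64 in the H19Ter libraries and 1.53, 2.23 and 2.03 in the H19Ter+neo libraries (difference 1.53 ± 0.26, SE, limma adjusted p = 0.00263), apart from WT too (0.26 and -0.25). Gm8126 was at -0.01 and 0.43 in the H19Ter libraries and 1.75, 1.68 and 1.74 in the H19Ter+neo libraries (difference 1.51 ± 0.20, SE, limma adjusted p = 5.65e-04), with 64.1% of its words in other transcripts. Phyhip stood at 2.31 and 2.74 in the H19Ter libraries and 3.24, 4.58 and 4.43 in the H19Ter+neo libraries and at -0.997 and -0.75 in WT, so both mutants were above WT and H19Ter+neo further (difference 1.55 ± 0.33, SE, limma adjusted p = 0.00745). Its call was lost without H19Ter replicate 3 (1.34).

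Ipp, a Kelch protein of the actin cytoskeleton, gave the largest fall among called genes whose log2 values averaged 1 or more and whose mutant libraries did not overlap, by way of the H19Ter libraries. It stood at 5.91 and 6.16 in the H19Ter libraries and 3.10, 2.91 and 2.96 in the H19Ter+neo libraries, and WT at 3.16 and 3.37: H19Ter was high, and H19Ter+neo lay just below WT (difference -3.05 ± 0.11, SE, limma adjusted p = 4.25e-07, 8.26-fold). In the other large falls too H19Ter+neo lay below all 4 other libraries, St3gal1 excepted. Across the protein-coding genes, 2174 of the 2410 that fell had H19Ter+neo below the other 4 libraries (22.4% of all protein-coding genes had that order) and 1619 of the 2002 that rose had it above them (20.2% of all).

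L1td1, an RNA-binding protein of pluripotent cells derived from a LINE-1 element, stood at 4.20 and 3.86 in the H19Ter libraries and 2.91, 2.14 and 2.32 in the H19Ter+neo libraries and at 5.12 and 5.55 in WT (difference -1.57 ± 0.21, SE, limma adjusted p = 7.52e-04). Bag3, a co-chaperone of selective autophagy, stood at 4.67 and 4.54 in the H19Ter libraries and 3.12, 3.26 and 3.27 in the H19Ter+neo libraries (difference -1.39 ± 0.10, SE, limma adjusted p = 2.90e-05) and had the smallest SE of the 12 falls. Tnnt1, a muscle troponin, fell by 1.42 ± 0.17 on the log2 scale. The predicted or little known genes 3425401B19Rik (-1.61 ± 0.15), Gm47283 (-1.49 ± 0.26), Gm10073 (-2.47 ± 0.53) and Rpl9-ps6 (-1.61 ± 0.13) fell too, the last 3 with 60.3%, 61.1% and 89.2% of their words in other transcripts.

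The last 3 falls were uneven among replicates. Capn11, a testis calpain, was at 2.96 and 2.87 in the H19Ter libraries and 0.04, 2.50 and -0.31 in the H19Ter+neo libraries (difference -2.17 ± 0.63, SE, limma adjusted p = 0.0271). St3gal1, a sialyltransferase, was at 3.75 and 1.56 in the H19Ter libraries and 1.05, 0.88 and 1.15 in the H19Ter+neo libraries (difference -1.63 ± 0.47, SE, limma adjusted p = 0.0268), its H19Ter mean set by replicate 3. Egr3, an immediate early factor, was at 2.03 and 1.97 in the H19Ter libraries and 1.63, -0.43 and 0.21 in the H19Ter+neo libraries (difference -1.53 ± 0.45, SE, limma adjusted p = 0.0294). Without H19Ter replicate 3 none of them was called, with differences of -2.13, -0.53 and -1.50, and Gm10073 lost its call there as well (-2.18). Capn11 lost it without replicate 4 (-2.22) and without H19Ter+neo replicate 7 (-1.65), St3gal1 without H19Ter+neo replicate 6 (-1.55), and Egr3 without H19Ter replicate 4 (-1.56) or H19Ter+neo replicate 6 (-1.09) or 7 (-1.40).

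The sorted cells carried the markers of their label. The 18 male fetal germ cell markers were all measured and summed to 5950 and 6150 CPM in H19Ter and 6420 to 6810 in H19Ter+neo, of which 6 rose and 3 fell. Markers of other testis cells were far lower but present. Interstitial and peritubular markers (16 genes, 3 of them lower) summed to 378 and 450 CPM in H19Ter and 272 to 324 in H19Ter+neo. Their median log2 values were only 2.85 and 1.83 in the H19Ter libraries and 2.32, 1.12 and 1.17 in the H19Ter+neo libraries. The sum thus rests mainly on the most abundant members and not on the whole list. Leydig markers (7 of 10 measured, 1 higher) summed to 32.8 and 47.3 CPM in H19Ter and 29.5 to 59 in H19Ter+neo, with H19Ter replicate 3 (47.3) and H19Ter+neo replicate 5 (59) above the others. Sertoli markers (15 genes, 1 lower) summed to 41.7 and 49.5 CPM in H19Ter and 35 to 46.4 in H19Ter+neo. Endothelial (10 genes), macrophage (7) and erythroid markers (3) stayed at or below 53.2 in every mutant library.

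The median difference of the interstitial list was -0.53, and 0.07 without H19Ter replicate 3; that of the Leydig list was -0.64, and -0.00358 without it. What part these cells had in the results was not tested. Leaving out H19Ter replicate 3 and H19Ter+neo replicate 5 together, 792 protein-coding genes rose (5.23%) and 1161 fell (7.66%). The list counts were then 27 histone genes higher, 24 ribosomal protein genes higher, 12 pluripotency genes lower and 23 remodelling genes lower, with medians of 0.75, 0.29, -0.44 and -0.17. In sorted bulk samples, fewer cells of a type and less RNA per cell cannot be told apart.

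Genes around the insertion were examined because the cassettes differ there and nowhere else by design. Of 23 protein-coding genes within 1 Mb on chromosome 7, 2 rose and 2 fell (17.4%, against 29.1% of all protein-coding genes). Th, tyrosine hydroxylase, stood at 2.78 and 2.34 in the H19Ter libraries and 1.77, 1.69 and 1.52 in the H19Ter+neo libraries (difference -0.90 ± 0.16, SE, limma adjusted p = 0.00352), and its call was lost without H19Ter replicate 3 (-0.68). The other calls were smaller: Cars, a cysteinyl-tRNA synthetase, at 0.29 ± 0.09, Ap2a2, an adaptor subunit of clathrin coats, at 0.21 ± 0.06, and Nap1l4, a histone chaperone, at -0.22 ± 0.06. Without H19Ter replicate 3 these were 0.32, 0.25 and -0.21 and without replicate 4 0.25, 0.16 and -0.22, none of them called. Without H19Ter+neo replicate 7 they were 0.20, 0.17 and -0.19, none of them called either, and Ap2a2 was also lost without replicate 6 (0.20).

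The imprinted genes on both sides of the ICR did not pass. H19 (chr7:142575529-142578143, - strand, GRCm38) stood at 5.70 and 5.36 in the H19Ter libraries and 5.10, 5.34 and 5.36 in the H19Ter+neo libraries and at 5.48 and 5.52 in WT, a difference of -0.26 ± 0.11 (SE, limma adjusted p = 0.106), with the groups meeting at H19Ter replicate 4. Without that library H19 was called (-0.44, limma adjusted p = 0.0441). Igf2 (chr7:142650766-142666816, - strand) was at a low level, 1.06 and 0.94 in the H19Ter libraries and 0.80, 1.05 and 1.03 in the H19Ter+neo libraries, a difference of -0.04 ± 0.21 (SE, limma adjusted p = 0.913) and a 95% interval from -0.51 to 0.43. Cdkn1c, of the neighbouring imprinted domain, differed by -0.19 ± 0.10 and was called only without H19Ter+neo replicate 5 (-0.27). The non-coding Gm33148 stood at 1.68 and 1.67 in the H19Ter libraries and 1.96, 1.91 and 2.11 in the H19Ter+neo libraries and at 2.50 and 2.18 in WT (difference 0.32 ± 0.15, SE, limma adjusted p = 0.149), with H19Ter+neo above H19Ter in every library. Within 10 Mb, 7 of 127 protein-coding genes rose and 16 fell (18.1%), and over all of chromosome 7 29.3% were called.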

How the data were processed

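Per the submitters' processing notes, Trim Galore (0.6.0) and STAR (2.7.8) were used for trimming and alignment, and the authors deposited 1 table of log2 CPM with scaled library sizes and a prior count averaging 2 reads. The gene annotation and the strandedness used in counting were not given in the sources used here, so overlapping and antisense genes may share reads. Undoing the deposited log2 scale gave whole read pairs (within 1e-06) for 100% of the values, and these served only for depths and for some alternatives.

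Differences were tested with limma (3.58.1, R 4.3.3) on the deposited log2 values, with empirical Bayes moderation and a trend of variance on mean, genotype as the only factor, all 7 libraries sharing 1 estimate of the spread, and Benjamini-Hochberg adjustment over 20643 genes. The procedure was tested on simulated data. GC content and length came from GENCODE vM21, in which 20615 identifiers matched. Genes were named by rule: the 12 largest called rises and falls averaging 1 or more on the log2 scale whose mutant libraries did not overlap, up to 4 members per list by smallest p, and genes within 1 Mb of the insertion. The comparison, lists and rule were chosen with earlier results of these data known. Alternatives covered scaling, prior count, a filter on low values, the samples in the fit, voom, variance trend, fold threshold, GC and length, depth and each library left out. No further low-value filter was applied to the deposited table, in which every gene reached at least 23 read pairs in some library. Some genes that the rule names are not reported here.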

Additional observations from a re-analysis of the deposited data

How the results depend on the processing

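The count of called protein-coding genes (4412) fell to 2602 without a variance trend, to 53 (207 of all gene types) against a 1.5-fold null, and ranged from 1750 to 4244 with 1 library left out, against 2326 to 5404 of the 5717 genes of all types. Leaving out H19Ter replicate 3 gave the lowest of these and leaving out replicate 4 gave 2273 and 2994, and either leaves H19Ter with 1 library whose spread is taken from the other genotypes. Without H19Ter replicate 3 and H19Ter+neo replicate 5, an alternative chosen after seeing the data, 1953 and 2550 were called. Of the named genes that were called, 18 lost the call without H19Ter replicate 3, 11 without replicate 4, 13 without the variance trend and 2 with the GC and length trend removed. Differences changed sign only for genes that were not called. Removal of the GC and length trend turned Ddx4 to -0.024, Hist1h1d to -0.048 and Igf2 to 0.15, and the same total per library turned Dnmt3l to -0.056. With libraries left out, Dnmt3l ranged over -0.059 to 0.17, Igf2 over -0.098 to 0.10, Hist1h1d over -0.17 to 0.38 and Stra8 over -0.83 to 0.16. The causes were not tested. No paired analysis was possible because the groups share no replicate numbers. Analysis without a further filter on low values is the analysis as reported. The 2 H19Ter libraries limit every difference.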

Other observations

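Among genes that do not code for proteins, small RNA classes of the nucleolus and of Cajal bodies were higher more often than lower in H19Ter+neo. Over all genes 12.5% rose and 15.2% fell. Of 156 snoRNA genes, which guide the modification of ribosomal RNA, 33 rose (21.2%) and 7 fell (26 and 12 with the GC and length trend removed). Of 17 scaRNA genes 8 rose (47.1%) and 1 fell (9 and 2). The lean was not particular to them: of 127 snRNA genes 29 rose (22.8%) and 8 fell (23 and 15), and 6 of 11 mitochondrial tRNA genes rose (3 with the trend removed). Of 1005 lincRNA genes 118 rose (11.7%, near the share of all genes) and 49 fell (4.88%, below it), or 83 and 56 with the trend removed. Processed pseudogenes went the other way: 65 of 1035 rose (6.28%) and 299 fell (28.9%), with a median log2 difference of -0.31 (46 and 305 with the trend removed). Their reads can belong to the parent genes.

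Rn7sk, the RNA that holds the elongation factor P-TEFb inactive, was chosen after its values were seen. It stood at 14.44 and 14.46 in the H19Ter libraries and 15.75, 15.27 and 16.02 in the H19Ter+neo libraries, with WT at 14.51 and 14.45, a difference of 1.23 ± 0.16 (SE, limma adjusted p = 6.17e-04). All 3 H19Ter+neo libraries were above the other 4, and 68.1% of its 50-base words occur in other transcripts.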
